A study of Mus musculus with 8 samples.

Results

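The Ly6 surface proteins form a family of small proteins built on a disulfide-bonded fold called the three-finger or LU domain. Many are held at the cell surface by a lipid (GPI) anchor, and several are used as markers of blood cell types. Ly6g and the Ly6c proteins mark neutrophils and monocytes, and Ly6a, also called Sca-1, is carried by many stem and endothelial cells and is raised by interferon. Lypd8 is shed by colon epithelium into the lumen, where it binds flagellated bacteria and keeps them away from the mucosa. The family was followed here through 9 named genes in mouse distal colon. Of these, 6 (Ly6m, Ly6e, Ly6g, Ly6k, Lypd8 and Ly6d) were each measured by 1 probe set that carried no other gene symbol. Ly6c1 and Ly6c2 shared their 2 probe sets and could not be told apart. No probe set was listed for Ly6a, which was not analysed here. The 6 probe sets were part of 18154 with a single gene symbol. The genes were chosen by their family and by the AA against SS difference measured on these same arrays, so that difference is given for the 6 genes as a description and with no test.

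The colon samples came from male BALB/c mice 5 weeks old. AA mice were given appendicitis and lost the appendix in a second operation 1 week later (4 arrays). For SS mice (4 arrays) a first sham operation was followed by a second 1 week later, so both groups had gone through 2 operations. The labels do not say which animal gave which sample, so the spread between arrays may be partly technical, and each of the 2 labelled batches held 2 AA and 2 SS arrays. All values are log2 expression, so a difference of 1 is a doubling. Probes differ in how brightly they bind, so levels of different probe sets are not ranked against each other. Where a level is set beside the median of all tested probe sets, it describes the signal and not the amount of RNA.

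Any pair of arrays correlated across probe sets at 0.974 to 0.995. AA replicate 3 and SS replicate 1 stood apart from the other 6 arrays on the first component, which held 31.9% of the variance. The differences of Ly6m and Ly6e and the p of Plaur are therefore also given without these 2 arrays. Marker lists and their genes are given with all arrays only, also where they move with these 2. The colonocyte genes that define the tissue were bright, with Car1, a carbonic anhydrase, at 13.79 ± 0.09 in AA and 13.69 ± 0.12 in SS (SD, n = 4 each). Of the squamous epithelium markers 11 were measured, and 7 of those had the higher mean in AA. The level of 10 of the 11 lay under 7.13, the median over the tested probe sets. Krt5 stood at 5.90 ± 0.06 in AA and 5.86 ± 0.07 in SS (SD, n = 4 each). Krt14 stood at 6.78 ± 0.16 in AA and 6.43 ± 0.15 in SS. Sprr1a lay above that median, at 8.75 ± 0.92 in AA and 8.01 ± 0.33 in SS. Over all tested probe sets limma called 0 at an adjusted p under 0.05 (0%), while 977 (5.38%) were higher and 490 (2.7%) lower at an unadjusted p under 0.05. The AA mean lay above the SS mean in 51% of them.

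Most of these genes lie in a cluster on chromosome 15 that arose by repeated copying, and some promoters in the cluster resemble each other. The 250 bases before the transcription start of Ly6g, of its neighbour Ly6f and of Ly6c1 and Ly6c2 are printed to show that likeness. Capitals mark the longest unbroken stretch shared with Ly6g (in Ly6g itself, with Ly6f). Sequences are from RefSeq, build GRCm38.p6, 5′ to 3′ on the gene's own strand.
Ly6g (chr15:75155011-75155260, plus strand): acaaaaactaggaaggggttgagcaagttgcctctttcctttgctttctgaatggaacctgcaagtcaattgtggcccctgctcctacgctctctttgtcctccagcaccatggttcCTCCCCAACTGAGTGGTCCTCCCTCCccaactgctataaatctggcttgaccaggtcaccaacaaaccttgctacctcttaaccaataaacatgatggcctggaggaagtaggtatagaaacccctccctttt
Ly6f (chr15:75268171-75268420, plus strand): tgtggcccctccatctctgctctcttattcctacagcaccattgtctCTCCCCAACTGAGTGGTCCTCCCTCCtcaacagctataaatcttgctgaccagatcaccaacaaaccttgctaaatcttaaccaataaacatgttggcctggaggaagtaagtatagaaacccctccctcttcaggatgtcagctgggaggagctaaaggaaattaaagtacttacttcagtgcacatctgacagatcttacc
Ly6c1 (chr15:75048838-75049087, minus strand): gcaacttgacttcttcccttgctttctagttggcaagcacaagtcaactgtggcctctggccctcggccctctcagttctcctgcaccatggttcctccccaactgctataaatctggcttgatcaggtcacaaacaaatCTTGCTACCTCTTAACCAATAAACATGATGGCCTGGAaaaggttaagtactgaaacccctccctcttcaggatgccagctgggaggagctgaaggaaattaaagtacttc
Ly6c2 (chr15:75111972-75112221, minus strand): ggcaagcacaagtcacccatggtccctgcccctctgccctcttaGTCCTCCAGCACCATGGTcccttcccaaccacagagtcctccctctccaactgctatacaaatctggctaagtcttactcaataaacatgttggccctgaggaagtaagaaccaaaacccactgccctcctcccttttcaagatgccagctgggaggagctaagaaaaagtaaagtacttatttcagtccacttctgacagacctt

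In a local alignment with the Ly6g promoter, Ly6f matched at 88.3% of 180 positions, Ly6c1 at 75.7% of 230 and Ly6c2 at 69.3% of 189. The shared stretches were 26 bases in Ly6f, 37 in Ly6c1 and 18 in Ly6c2. These are promoter sequences and not the probes of the array, whose sequences were not used here. Whether the probes of Ly6g, Ly6f or Ly6i also bind RNA of other genes of the cluster was not tested, and their values are uncertain in that respect.

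Ly6m, a gene of the cluster, had the widest separation of the 6 genes. It stood at 10.27, 10.42, 9.90 and 10.78 in AA replicates 1 to 4, against 9.40, 9.33, 9.39 and 9.35 in SS replicates 1 to 4. The groups did not overlap, with a gap of 0.50 between the lowest AA and the highest SS array. The means were 10.34 ± 0.36 in AA and 9.37 ± 0.03 in SS (SD, n = 4 each), a difference of 0.97 ± 0.17 (SE) or 1.96-fold. The 4 AA arrays spread widely while the 4 SS arrays lay close together. The difference was 0.98 in batch 1 and 0.97 in batch 2. Leaving out 1 array at a time gave 0.80 to 1.15, and leaving out AA replicate 3 and SS replicate 1 gave 1.21. Ly6m was the 1 gene of the 6 in which the groups did not overlap, where 6.39% of all tested probe sets showed no overlap in either direction 4.21% had all AA above all SS and 2.18% all AA below all SS. Its choice rested on this contrast, so nothing is read from that share.

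**Figure D1:**
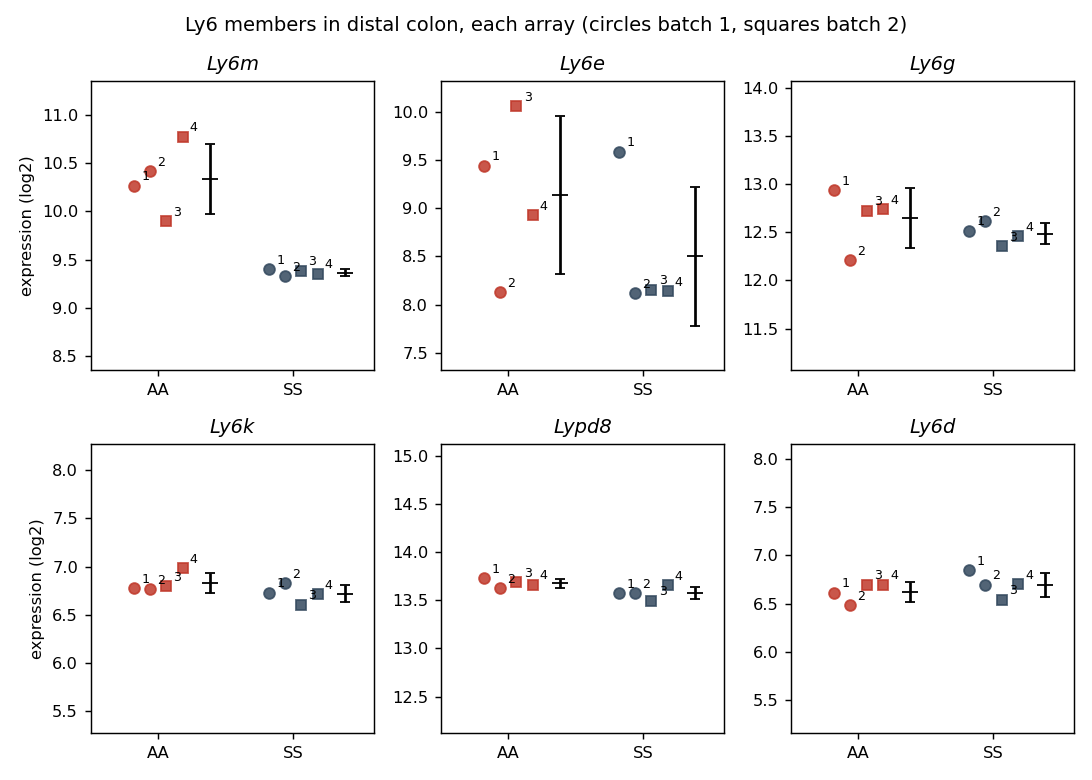
Log2 expression of the 6 measured Ly6 genes on each array, AA left and SS right, with replicate numbers beside the points; circles are batch 1, squares batch 2, and bars show the mean and SD of 4 arrays. Each panel spans the same log2 range. In Ly6m all AA arrays (9.90 to 10.78) lie above all SS arrays (9.33 to 9.40), and in the other 5 genes the groups overlap.

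Among the AA arrays Ly6m was highest in replicate 4 and lowest in replicate 3. The mean of 23 interferon-induced genes ran the other way there, at 9.55 in AA replicate 3 and 8.72 in AA replicate 4. The interferon list was higher in AA in 23 of 23 genes and ranged from 8.72 to 9.55 in AA and from 7.84 to 8.67 in SS. Other lists were also higher in AA replicate 3 than in AA replicate 4. The mean of 12 neutrophil genes was 6.35 and 5.20, and that of 15 macrophage and monocyte genes 8.73 and 7.60. Means of 12 colonocyte genes were highest in AA replicates 2 and 4, at 12.49 and 12.32, which were also the AA arrays highest in Ly6m. The colonocyte list ranged from 12.08 to 12.49 in AA and from 11.88 to 12.10 in SS, with 10 of its 12 genes higher in AA. The mean of 10 smooth muscle genes was also highest in AA replicates 2 and 4, at 10.68 and 10.52, with 10 of 10 genes higher in AA. It ranged from 10.04 to 10.68 in AA and from 9.85 to 10.27 in SS. Among the AA arrays the mean of 7 goblet cell genes was also highest in replicates 2 and 4, at 12.045 and 11.649. That list ranged from 11.47 to 12.045 in AA and from 11.18 to 11.76 in SS, with 5 of 7 genes higher in AA. The mean of 9 plasma cell genes was highest in AA replicate 4, at 7.85, and ranged from 7.57 to 7.85 in AA and from 7.50 to 7.61 in SS, with 6 of 9 genes higher in AA. The part of these cell types in the Ly6m difference was not tested. In bulk tissue, more cells of a type and more RNA per cell cannot be told apart.

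Ly6e, a widely expressed and interferon-inducible member that in viral infection alters the entry of viruses into cells, varied most among arrays of one group. It stood at 9.44, 8.13, 10.06 and 8.92 in AA replicates 1 to 4, against 9.59, 8.12, 8.16 and 8.14 in SS replicates 1 to 4. AA replicate 2 lay at the level of the 3 low SS arrays, and SS replicate 1 lay above 3 of the 4 AA arrays. The means were 9.14 ± 0.82 in AA and 8.50 ± 0.72 in SS (SD, n = 4 each), and their difference of 0.64 ± 0.45 (SE) was smaller than either SD. Its residual SD of 0.84 exceeded that of most tested probe sets, at percentile 99.4. The difference was -0.07 in batch 1 and 1.34 in batch 2. It was 1.07 without SS replicate 1, 1.04 without AA replicate 2, 0.27 without AA replicate 3, and 0.72 without both AA replicate 3 and SS replicate 1.

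Several marker lists moved with Ly6e across the arrays, among them macrophage and monocyte genes. Means of the 15 genes of that list were 8.73 in AA replicate 3, 8.06 in SS replicate 1, 8.03 in AA replicate 1 and 7.60 in AA replicate 4, and the other 4 arrays lay between 7.16 and 7.41. Ly6e placed the same 4 arrays first and in the same order. The list ranged from 7.41 to 8.73 in AA and from 7.16 to 8.06 in SS, and all 15 genes had the higher mean in AA. Of its defining markers, Csf1r, the receptor for the macrophage growth factor CSF1, stood at 8.23 ± 0.42 in AA and 7.79 ± 0.35 in SS (SD, n = 4 each). Ccr2, a chemokine receptor of monocytes, stood at 7.02 ± 1.04 in AA and 6.58 ± 0.55 in SS (SD, n = 4 each). The mesothelium list (9 genes, 8 higher in AA) and the endothelial list (12 genes, 9 higher in AA) had the same 4 arrays highest. The mesothelium list ranged from 7.77 to 8.97 in AA and from 6.87 to 8.15 in SS, and the endothelial list from 6.81 to 6.98 in AA and from 6.73 to 6.92 in SS. The adipose list, with 0 of 10 genes higher in AA, was highest in SS replicate 1 at 8.997 and next in AA replicate 3 at 7.97. Interferon-induced genes were highest in AA replicate 3 too, but the groups did not overlap in that list. The colonocyte list was lowest in SS replicate 1, at 11.88. The part of any of these in the Ly6e values was not tested.

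**Figure D2:**
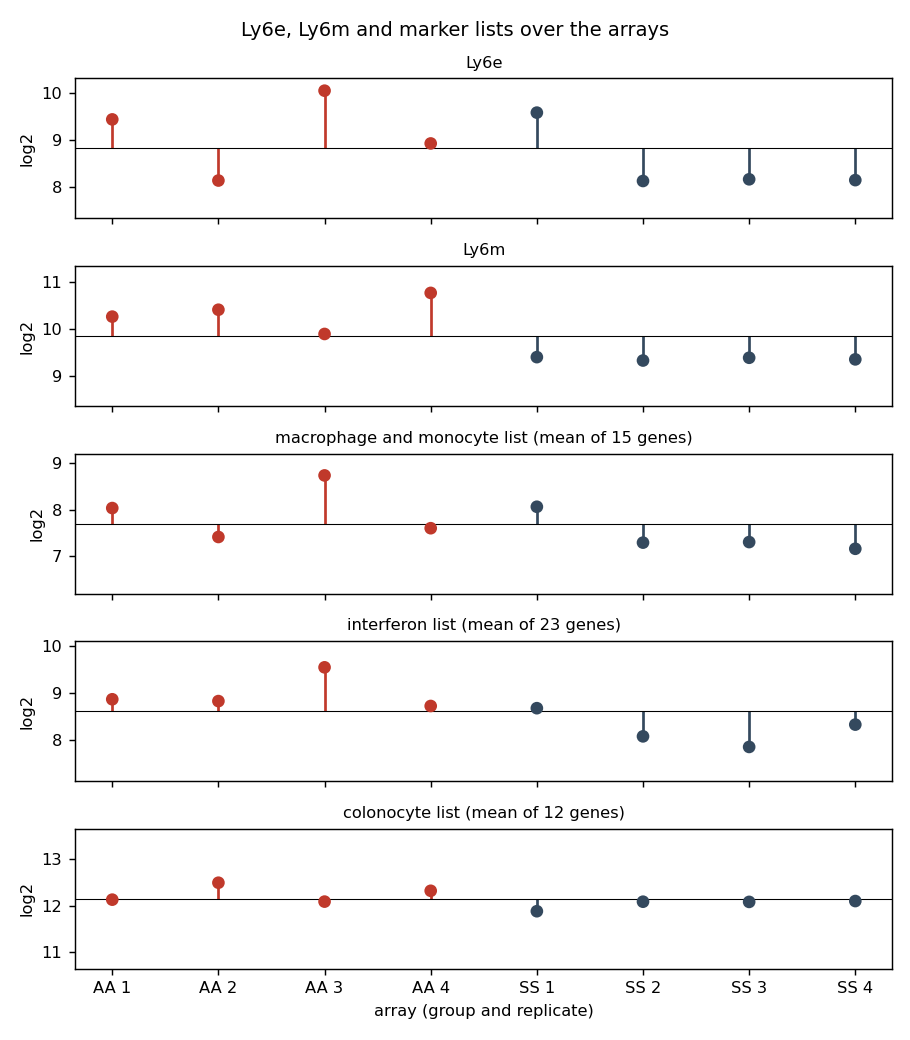
Log2 expression of Ly6e and Ly6m and mean log2 expression of 3 marker lists on each array, AA replicates left and SS replicates right; stems start at the mean of the 8 arrays. Ly6e and the macrophage list are both highest in AA replicate 3 (10.06 and 8.73) and next in SS replicate 1 (9.59 and 8.06), while Ly6m is above its mean in all AA arrays.

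The 2 probe sets annotated to both Ly6c1 and Ly6c2, which encode the Ly6C antigens of monocytes, endothelium and plasma cells, cannot be given to either gene and are left out of the counts. The first read 11.07, 9.81, 11.28 and 10.52 in AA replicates 1 to 4, against 10.62, 10.32, 10.06 and 9.97 in SS replicates 1 to 4. The groups overlapped, and AA replicate 2 was the lowest of all 8 arrays. AA minus SS was 0.43 ± 0.31 (SE) for this probe set and 0.23 ± 0.26 (SE) for the other, both smaller than the SD of the AA arrays (0.66 and 0.53). The 4 highest arrays were again AA replicates 1, 3 and 4 and SS replicate 1.

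Ly6g, known as the antigen of the neutrophil marker antibody Gr-1, read 12.93, 12.21, 12.72 and 12.74 in AA replicates 1 to 4, against 12.52, 12.62, 12.35 and 12.46 in SS replicates 1 to 4. AA replicate 2 was the lowest of the 8 arrays, while the other AA arrays lay above all SS arrays. Means were 12.65 ± 0.31 in AA and 12.49 ± 0.11 in SS (SD, n = 4 each), and the difference of 0.17 ± 0.15 (SE) was within the AA spread. It was 0.0050 in batch 1 and 0.33 in batch 2, 0.34 without AA replicate 2 and 0.05 without AA replicate 1.

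Of the neutrophil markers, 12 of the 15 listed were measured and 11 of those had the higher mean in AA. Cxcr2, a chemokine receptor of neutrophils, stood at 4.43 ± 0.70 in AA and 4.04 ± 0.35 in SS (SD, n = 4 each). The neutrophil list ranged from 5.20 to 6.35 in AA and from 5.00 to 5.66 in SS. It was highest in AA replicate 3, whereas Ly6g was highest in AA replicate 1. S100a8, which encodes an abundant neutrophil calcium-binding protein, stood at 6.35 ± 1.36 in AA and 5.46 ± 0.69 in SS (SD, n = 4 each). It read 8.35 in AA replicate 3 and 5.28 to 5.94 in the other AA arrays. All 12 measured neutrophil genes had signals below the median of the tested probe sets, while that of Ly6g lay above it. In the part of the values that groups and batches do not explain, Ly6g and the neutrophil list correlated at 0.182 over the 8 arrays. With the 2 probe sets shared by Ly6c1 and Ly6c2 that correlation was 0.813 and 0.772. The source of the Ly6g signal was not tested.

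The Lypd8 values lay close together. Lypd8 read 13.73, 13.62, 13.68 and 13.66 in AA replicates 1 to 4, against 13.57, 13.57, 13.49 and 13.65 in SS replicates 1 to 4. All AA arrays but replicate 2 lay above all SS arrays. The means were 13.67 ± 0.04 in AA and 13.57 ± 0.07 in SS (SD, n = 4 each), a difference of 0.10 ± 0.08 (SE), with 0.10 in each batch. Its residual SD of 0.06 lay at percentile 3.12 of the tested probe sets. Its mean level of 13.62 was near the highest value on the arrays, 14.72, and whether differences are compressed there was not tested. Colonocyte genes, from the cells that make Lypd8, were higher in AA in 10 of 12. Their mean was highest in AA replicate 2, at 12.49, where Lypd8 was lowest among the AA arrays. It was 12.13 in AA replicate 1, where Lypd8 was highest. In the part of the values that groups and batches do not explain, Lypd8 and this list correlated at -0.394 over the 8 arrays. The part of colonocytes in the Lypd8 values was not tested.

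The signals of Ly6k and Ly6d were both below the median of 7.13. Ly6k, known in the mouse testis for a role in sperm migration, read 6.78, 6.77, 6.80 and 6.98 in AA replicates 1 to 4, against 6.73, 6.83, 6.61 and 6.72 in SS replicates 1 to 4. Ly6d, a marker of early B cell progenitors and of squamous keratinocytes, read 6.61, 6.48, 6.70 and 6.70 in AA replicates 1 to 4, against 6.84, 6.69, 6.54 and 6.70 in SS replicates 1 to 4. The groups overlapped in both genes. Ly6k differed by 0.11 ± 0.09 (SE), with -0.0035 in batch 1, 0.23 in batch 2 and 0.05 without AA replicate 4. Ly6d differed by -0.07 ± 0.10 (SE), with -0.22 in batch 1 and 0.08 in batch 2. The Ly6d difference was -0.01 without SS replicate 1, -0.02 without AA replicate 2 and -0.14 without SS replicate 3. The B cell genes were lower in AA in 9 of 9 measured. Their list ranged from 5.36 to 5.89 in AA and from 6.12 to 6.45 in SS. The squamous epithelium list went the other way, and AA lay higher in 7 of its 11 genes. It ranged from 6.025 to 6.128 in AA and from 5.856 to 6.052 in SS. The part of either list in the Ly6d values was not tested.

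Over the 6 genes, 5 had the higher mean in AA and 1 the lower, where 51% of all tested probe sets were higher. The median difference was 0.14, against 0.0033 over all tested probe sets. The choice of the genes rested in part on this contrast, so nothing is read from these counts and medians. In 3 of the 6 the sign was the same in both batches, as it was in 8273 of the 18154 tested probe sets. The median of the 6 was 0.0007 in batch 1 and 0.28 in batch 2.

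Along chromosome 15 the genes stand in the order Slurp1, Lypd2, Slurp2, Lynx1, Ly6d, Ly6g6g, Ly6k, then Cyp11b1 and Cyp11b2 (enzymes of adrenal steroid synthesis), Ly6m, Ly6e, Ly6i, the Ly6a and Ly6c genes, Ly6g, Ly6g2 and Ly6f, with Ly6h further on. This order is from the RefSeq table of assembly GRCm38.p6. Ly6m and Ly6e, the genes with the largest differences among the 6, are direct neighbours. In batch 1 Ly6m differed by 0.98 and Ly6e by -0.07. In the part of the values that groups and batches do not explain, they correlated at -0.459 over the 8 arrays. Whether their position bears on the differences was not tested. Of the 14 Ly6-related genes measured there, the groups did not overlap in 2, Ly6m and Lynx1, where 6.39% of all tested probe sets showed no overlap and Ly6m was chosen on this contrast. Of the measured genes on either side of this pair, Cyp11b2 differed by 0.02 ± 0.10 (SE) and Ly6i by 0.09 ± 0.22 (SE).

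**Figure D3:**
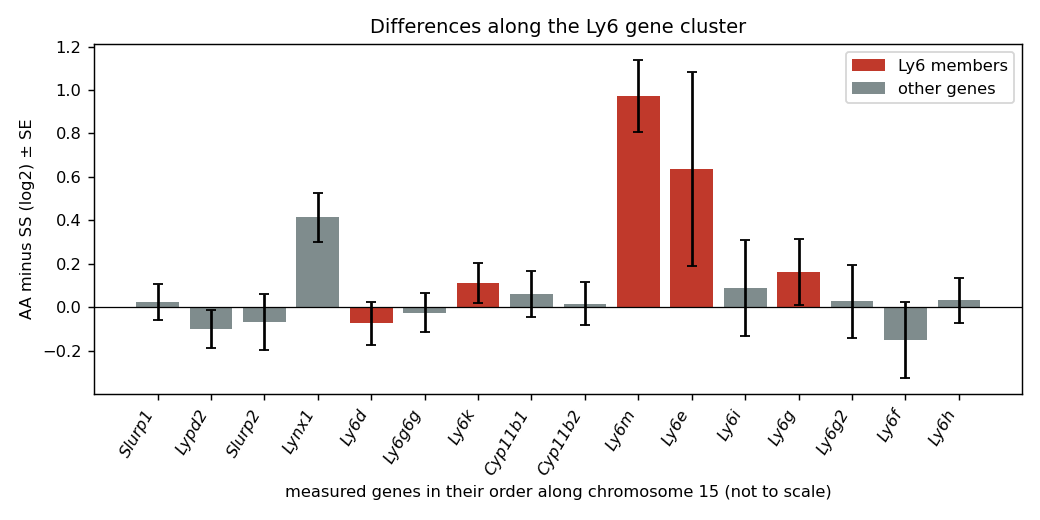
AA minus SS difference (log2, bars from 0, whiskers ± SE from limma) of each measured gene in its order along chromosome 15, not to scale; Ly6 members are red and other genes grey. Ly6m (0.97) and Ly6e (0.64) stand side by side, and Lynx1 (0.41) is the next largest. In batch 1 alone Ly6e was at -0.07 and Ly6m at 0.98.

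Beyond these genes the family holds other LU-domain proteins, from complement inhibitors to modulators of acetylcholine receptors. A list of 40 was used, of which 29 had a probe set of their own, 25 of them below the median level. After adjustment over all 18154 probe sets limma called 0 of the 29 (0% of all probe sets), with a lowest adjusted p of 0.298. The unadjusted p was under 0.05 for 4 genes higher in AA (13.8%, against 5.38% of all probe sets) and for 1 lower (3.45%, against 2.7%). The list's median difference was -0.02, with 12 genes higher and 17 lower. The groups did not overlap in 3 genes, with 2 above (4.21% of all probe sets) and 1 below (2.18%).

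Cd59a, which encodes an inhibitor of the complement membrane attack complex, stood at 8.51, 9.08, 8.36 and 8.60 in AA replicates 1 to 4, against 7.68, 7.84, 8.22 and 7.92 in SS replicates 1 to 4. The groups did not overlap. The difference was 0.72 ± 0.17 (SE) in limma, with an unadjusted p of 0.00209 and an adjusted p of 0.298. It was 1.03 in batch 1 and 0.41 in batch 2. Lynx1, a modulator of nicotinic acetylcholine receptors, stood at 7.05, 7.23, 7.23 and 7.30 in AA, against 6.94, 6.76, 6.91 and 6.55 in SS. The groups did not overlap, and the difference was 0.41 ± 0.11 (SE) with an unadjusted p of 0.00502 and an adjusted p of 0.386 in limma. Within batch 1 alone its unadjusted p was 0.103.

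Ly6g6c, a gene of the major histocompatibility complex region, had the largest difference of the list and also a wide spread. It stood at 8.12, 10.29, 7.89 and 9.53 in AA replicates 1 to 4, against 6.81, 7.58, 8.03 and 7.35 in SS replicates 1 to 4. SS replicate 3 lay above AA replicate 3, so the groups overlapped. The difference was 1.52 ± 0.51 (SE), with an unadjusted p of 0.0154 and an adjusted p of 0.503 in limma. It was 2.01 in batch 1 and 1.02 in batch 2, and 0.98 without AA replicate 2. The unadjusted p was 0.0548 without AA replicate 4 and 0.0545 without SS replicate 1. AA replicates 2 and 4, its highest arrays, were also the highest in the colonocyte list, in the smooth muscle list and in Ly6m. Among the AA arrays they were the highest in the goblet cell list too, at 12.045 and 11.649, with SS replicate 3 at 11.755. The part of any of these cell types in the Ly6g6c values was not tested.

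Plaur, the receptor of the protease urokinase, differed by 0.33 ± 0.14 (SE), with an unadjusted p of 0.0449 and an adjusted p of 0.607 in limma. Its difference was -0.03 in batch 1 and 0.69 in batch 2, and its unadjusted p was 0.119 to 0.139 without AA replicate 3, AA replicate 4, SS replicate 3 or SS replicate 4. It was 0.0529 without both AA replicate 3 and SS replicate 1, 0.0734 with a replicate block and 0.0572 after quantile normalization. Lypd6b stood at 6.29 ± 0.10 in AA and 6.60 ± 0.18 in SS (SD, n = 4 each), with all AA arrays below all SS arrays. Lypd6b differed by -0.31 ± 0.11 (SE), with an unadjusted p of 0.0231 and an adjusted p of 0.551 in limma. That p was 0.0592 to 0.176 without AA replicate 1 or 3, without SS replicate 2 or 4, and in batch 1 alone. Ly6f differed by -0.15 ± 0.18 (SE). The mean levels of Lynx1, Plaur, Lypd6b and Ly6f lay below the median of the tested probe sets, that of Plaur only just.

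The lowest value of the list, in Pate4, a gene of the male accessory glands, came from 1 array. Pate4 read 4.77, 4.26, 3.36 and 3.36 in AA replicates 1 to 4, against 4.64, 4.37, 3.30 and 8.02 in SS replicates 1 to 4. The difference was -1.14 ± 0.87 (SE), with 0.0076 in batch 1, where SS replicate 4 does not enter.

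**Figure D4:**
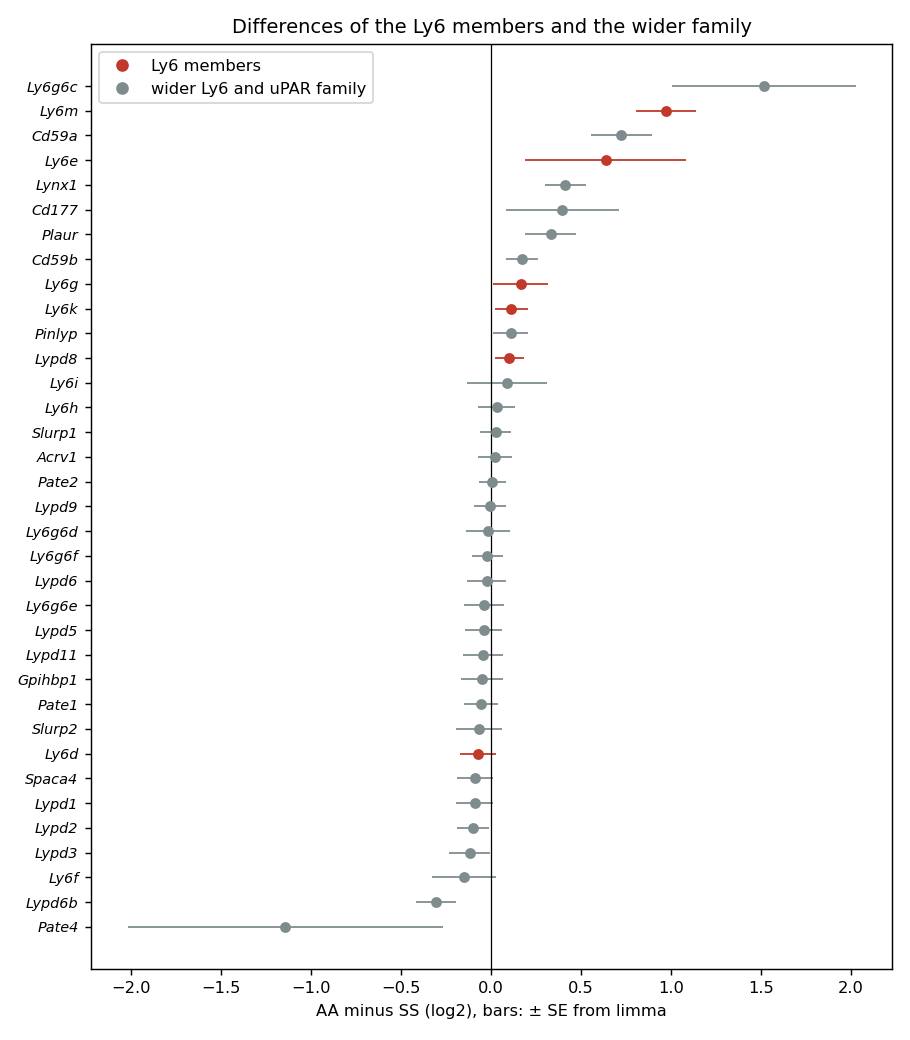
AA minus SS difference (log2, points with ± SE from limma) of the 6 measured Ly6 members (red) and the 29 measured genes of the wider Ly6 and uPAR family (grey), highest at the top. Ly6g6c (1.52), Ly6m (0.97) and Cd59a (0.72) lead, and Pate4 (-1.14) is the lowest, with the widest error.

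The promoters were searched for a core of the interferon-stimulated response element, GAAA followed by any 2 bases and GAAA again, and for the gamma-activated site that STAT factors bind, TTCNNNGAA. Both strands of the 250 bases before each start were searched. The table holds promoters of 4 of the 9 Ly6 members (Ly6c1, Ly6c2, Ly6g and Lypd8) and of 19 of the 29 measured family genes. The first motif, in 2.98% of all 32851 promoters, was found in none of these members and in Cd59a alone of the family genes. The gamma-activated site, in 7.02% of promoters, was found in none of either. A shorter core to which interferon regulatory factors bind, AANNGAAA, lies within the first motif and was searched after that result was seen. It is common, in 21.3% of promoters, and lay in a promoter of Ly6g and of Lypd8 and of the family genes Cd59a, Cd59b, Ly6f, Ly6g6c and Pate2. These percentages count transcription starts, whereas a gene was named if any of its starts held the motif. The 4 members had 8 starts and the 19 family genes 24, so the gene counts and the percentages are not alike.

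The genes whose pattern was most like each member were taken from the part of the values that the groups and batches do not explain, over the 8 arrays. The measure was Pearson's r, and a high r arises from the choice of the best among all genes above the median level. Ly6e was closest to Slpi, a protease inhibitor of mucosal surfaces (0.991), Fxyd5 (0.990) and Cd33, a receptor of myeloid cells (0.984). For Ly6m the closest were Rnu12 (0.976), Pex16 (0.973) and Zkscan14 (0.973). Ly6g was closest to Klb (0.994), Eno3 (0.987) and Tgm3 (0.985). For Lypd8 they were Ppat (0.986), AW112010 (0.959) and Gm9926 (0.947). Ly6k was closest to 4930579G24Rik (0.987), Acvrl1 (0.981) and Akr7a5 (0.960), and Ly6d to Cngb1 (0.965), Steap3 (0.961) and Uba7 (0.954).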

How the data were processed

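Total RNA (100 ng per sample) from distal colon was hybridised to Affymetrix MoGene 1.0 ST arrays, per the labels. The authors deposited log2 values per probe set. RMA, Affymetrix Power Tools and Partek 6.4 are named in the submitters' processing notes. No genome build is named in the sources used here. Batch means differed by at most 0.00006 in every tested probe set, so the deposited log2 values carry no difference between batches; the step that did this is not given in the sources used here.

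Of 23442 probe sets the platform annotation gave 1 gene symbol to 18154, several to 1559 and none to 3729. The 18154 were fitted in R 4.3.3 with limma 3.58.1 (batch and group as terms, 5 residual degrees of freedom) and p-values adjusted by Benjamini-Hochberg over all of them. The fit was tested on simulated data. Differences are AA minus SS, SD is over arrays and SE from limma. Precision is limited by the number of arrays.

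The members and lists were chosen with earlier results of these data known. Named were all measured members, the 3 highest and 3 lowest genes of the wider family with those at an unadjusted p under 0.05, the 3 genes of most similar residual pattern per member, and defining markers of lists. Marker lists used the brightest probe set per gene. Genes named outside this rule, such as cluster neighbours, were chosen after their values were seen. The authors' table of gene sets was not used here.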

Additional observations from a re-analysis of the deposited data

Results flagged for a closer look

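Among 13 named genes, each group of 4 arrays was checked for a single array far from the other 3, which made 26 groups. Chance marks about 1 in 20 such groups, and 2 were found. SS replicate 1 read 9.59 in Ly6e, where the other SS arrays lay between 8.12 and 8.16. AA replicate 4 read 6.98 in Ly6k, where the other AA arrays lay between 6.77 and 6.80.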

How the results depend on the processing

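The median difference of the measured Ly6 members stayed above 0 in all 18 alternatives (0.0007 to 0.40), and so did Ly6m alone (0.80 to 1.21). The 0.40 came from the filter at the median level, which kept 4 of the 6 genes. The members were chosen partly on this contrast on the same arrays, so nothing is read from these signs. With 1 array left out the median was 0.09 to 0.24. The number of members without overlap was 1 to 3 with 1 array left out: 3 without AA replicate 2 (Ly6m, Lypd8 and Ly6g, where 9% of all probe sets did not overlap), 2 without SS replicate 2 (with Ly6k, 8.47%), and 2 without SS replicate 4 (with Lypd8, 8.22%). It was 3 in batch 1 alone and 5 in batch 2 alone, where 39.3% and 45.8% of all probe sets did not overlap among 4 arrays. The family kept 0 adjusted calls throughout. At an unadjusted p under 0.05 its higher genes numbered 2 to 4 with 1 array left out (2 without AA replicate 4), 2 with the filter at the median level and 2 in batch 1 alone. Its lower genes numbered 0 to 1, with 0 without AA replicate 1, AA replicate 3, SS replicate 2 or SS replicate 4, 0 with that filter and 0 in batch 1 alone. The filter left fewer genes, and a batch alone fewer arrays. Plaur was at -0.028 in batch 1 alone, where Ly6e and Ly6k also lay below 0, and Ly6d lay above 0 in batch 2 alone. The unadjusted p of Cd59a was 0.000512 to 0.0320 over its alternatives and that of Ly6g6c 0.00240 to 0.0869. The fit without AA replicate 3 and SS replicate 1 together was chosen after seeing the data. With a replicate block the member median was 0.14, and 3 family genes were higher and 1 lower. Deviations of same-numbered arrays correlated at -0.441 to -0.0929. The equal batch means push such correlations below 0, so this check cannot decide whether the numbers pair the samples. The main fit did not pair them. In the weighted fit SS replicate 2 counted at 11.5 and each of the other arrays at 0.273 to 1.53.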

Other observations

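The Pate4 value of SS replicate 4 led to a look at 12 genes of the seminal vesicle and prostate, a list chosen after the data were seen. All 12 were highest in SS replicate 4, by 0.68 to 3.43 above the next array. Svs4, a seminal vesicle secretory protein, read 5.59, 5.17, 4.26 and 4.18 in AA replicates 1 to 4, against 5.46, 5.31, 4.07 and 9.02 in SS replicates 1 to 4. Pbsn, the prostate protein probasin, read 6.10 in SS replicate 4 and between 2.85 and 3.75 in the other 7 arrays. In 10 of the 12 genes the other 3 arrays of batch 2 lay below all 4 arrays of batch 1, in values whose batch means had been made equal. Without SS replicate 4 the Ly6m difference was 0.97 and that of Ly6e 0.49.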
